A study of Triticum aestivum with 4 samples.

Results

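The regions described here are the 1 Mb stretches of the wheat genome that hold the most binding peaks of TaCCA1-7D. Peak summits on the 21 named chromosomes were counted in 1 Mb bins starting at position 0, and a bin with 50 or more summits was called dense. This gave 99 dense bins among 14074, or 0.703% of the bins, and they hold 5134 of the 460130 peaks on the chromosomes, or 1.12%. The whole list has 467343 peaks, of which 7213 lie on unplaced scaffolds and were not binned. The members were chosen by the count of summits per bin, so the number of dense bins and everything that follows from their density is a description without a test.

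CCA1 is a MYB-like transcription factor of the plant circadian clock that is made around dawn and binds short AT-rich words of the evening element type in the promoters of evening genes. Bread wheat is hexaploid, and its A, B and D subgenomes each carry 7 chromosomes, so that most loci exist as 3 homoeologous copies in broadly the same order. The distal parts of wheat chromosomes are known as gene-rich and highly recombining, and the regions around the centromeres as gene-poor.

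The data come from DNA affinity purification sequencing (DAP-seq), in which a tagged protein on beads captures sheared, purified genomic DNA. The bait was recombinant TaCCA1-7D fused to maltose-binding protein, and the DNA came from leaves of 2-week-old seedlings of the cultivar Fielder, grown under 16 h light and 8 h dark. There were 2 libraries of the CCA1 group and 2 input libraries, from the same cultivar and tissue and with no further treatment. A single peak list serves both CCA1 libraries and does not separate them, and for that reason library values and replicate errors are not given. Since purified DNA carries no chromatin, the list describes affinity for naked DNA and not occupancy in the leaf.

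The genome sequence of the build was not used here, so the sequences under the peaks are not shown. The following probes from promoters tested in the study stand in to show the kind of word the protein was assayed on, with AATATC in capitals, 5′ to 3′. Each is given with the chromosome in its gene identifier, and whether they lie in a dense bin was not analysed here.
DAP-1 (TraesCS1D02G226100, 1D): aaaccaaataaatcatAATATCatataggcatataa
DAP-2 (TraesCS1D02G295200, 1D): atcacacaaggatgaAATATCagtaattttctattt
DAP-3 (TraesCS2B02G491700, 2B): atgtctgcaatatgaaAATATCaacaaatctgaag
DAP-4 (TraesCS3B02G186700, 3B): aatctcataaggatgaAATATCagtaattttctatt
Each of the 4 probes holds the word once on the strand shown.

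Summits per 1 Mb bin had a mean of 32.7 and a median of 33, with quartiles at 29 and 37. If summits fell independently at this mean, a Poisson distribution would give 41.1 bins with 50 or more summits, so the 99 dense bins are 2.41 times the expectation. With a mean of its own for each chromosome the expectation was 45.3 bins, and with separate means for the outer and inner parts of each subgenome it was 43.4. Differences in mean density between chromosomes or subgenomes thus moved the expectation little.

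The departure from the Poisson curve lies on both sides. The variance of the counts was 1.68 times the mean. There were 313 bins with fewer than 15 summits against an expectation of 2.75, a far larger excess than at the dense end. Near the middle, bins with 30 to 34 summits were fewer than expected, at 4178 against 4766. At the dense end the ratio of observed to expected bins grew with the count. It was 1.66 at 45 to 49 summits, with 485 bins against 291.6. At 50 to 54 it was 2.27, with 86 against 37.8, and at 55 or more 4.02, with 13 against 3.23.

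**Figure D1:**
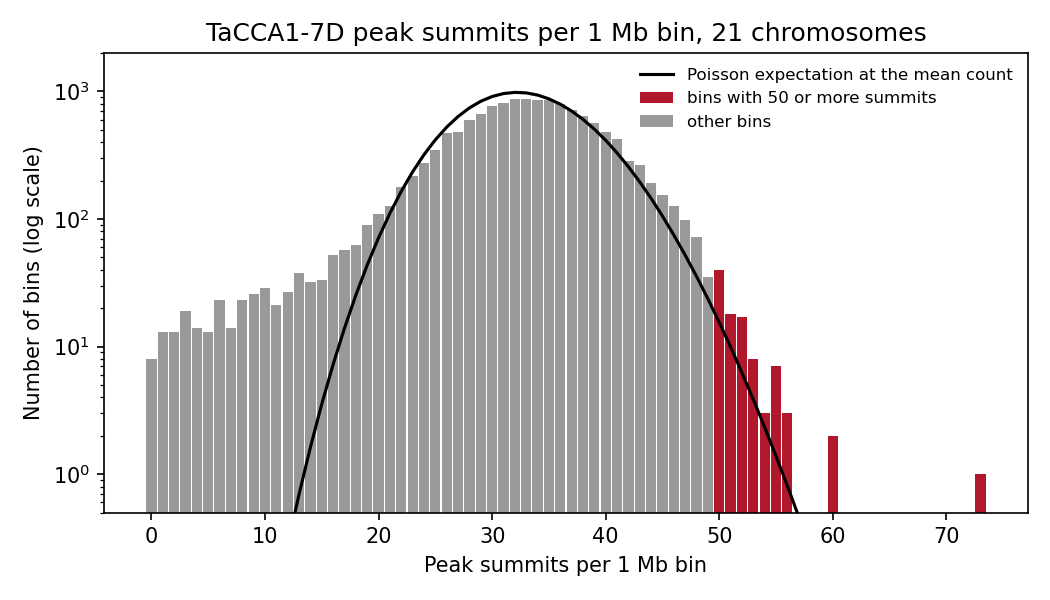
Number of 1 Mb bins (log scale) by the number of peak summits they hold, with the 99 dense bins in red, the other bins in grey and the Poisson expectation at the mean of 32.7 as a line. Observed bins exceed the line at both ends, with 313 bins under 15 summits and 99 at 50 or more.

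Most dense bins lay close to the threshold. Of the 99, 86 had 50 to 54 summits, 40 had exactly 50, and 35 further bins fell just short with 49. The peaks in bins of 50 and of 49 summits were alike in kind. Their median distance to the nearest summit was 9168 and 8784 bp, their median width 490.5 and 489 bp, and their median fold enrichment (the pileup of tags at the summit plus 1, over the local background plus 1) 6.17 and 6.32. The threshold therefore cuts a continuous distribution.

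The placement of the bin borders decided which peaks are members. With all bins shifted by 0.5 Mb there were 94 dense bins, close to the original number, but they held only 22.4% of the 5134 member peaks. Closely spaced summits also carried part of the count. When summits within 2 kb of the previous one were counted once, 35 of the 99 bins still had 50 or more sites, against a Poisson expectation of 18.4 at the lower mean of 31.4 sites per bin. When summits within 5 kb were counted once, 10 bins were left, against an expectation of 9.40.

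The dense bin with the most summits lies at the end of chromosome 3B, from 830000001 to the last peak of the chromosome at 830828789. It held 73 summits in 829 kb, or 88.1 per Mb. Its 73 summits make 65 sites when those within 2 kb are counted once, and up to 17 summits fell within 100 kb, the highest such number in any dense bin. Its peaks were also narrow, with a median width of 354 bp, the lowest of the 99 bins. The bin before it, also dense, held 52 summits.

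Chromosome 3A began with a pair of dense bins. Its first Mb held 56 summits, its second Mb held 60, and the third Mb fell to 13. The second Mb also had the highest number of peaks numbered by the peak caller in any bin, 133, of which 45.1% were kept in the list.

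On chromosome 5A the bin from 587000001 to 588000000 held 60 summits between neighbours with 21 and 36, so this bin stood apart from its surroundings. The bins tied for the next place held 56 summits each, the first Mb of 3A, the bin from 809000001 to 810000000 on 3B and the bin from 3000001 to 4000000 on 6D. The longest run of adjacent dense bins was on 7A, from 699000001 to 702000000, with 3 bins of 53, 50 and 52 summits. A further 5 runs joined 2 bins each, on 3A, 3B and 4B, and 86 dense bins had no dense neighbour.

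Bins next to a dense bin were moderately fuller than average. At a distance of 1 Mb they held 36.5 ± 8.73 summits (SD over 196 neighbour positions, a bin counted once for each dense bin beside it). Of these positions, 14, or 7.14%, were dense themselves, against 0.703% of all bins. They are the 13 bins in runs, some counted more than once. At 2 Mb the mean was 34.6 ± 7.76, and at 10 Mb it was 33.4 ± 8.42, near the mean of 32.9 of the chromosomes concerned. The dense bins were thus mostly single maxima on a slightly raised background and not parts of long dense blocks.

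Dense bins were concentrated near the chromosome ends, chiefly the far end. The outer 10% at each end of the chromosomes held 50 of the 99 dense bins, or 50.5% (95% Wilson interval 40.8 to 60.1%, counting error only), against 20% of all bins. The last 10% of the chromosome held 36. The first 10% held 14, little more than the 11 each from 10 to 20% and from 20 to 30%. In the stretch from 30 to 60% of the length, which is 4220 bins, there were 7. Only 10 dense bins had their centre within 5 Mb of an end, and 44 within 50 Mb, so most of the terminal ones were distal without being at the tip.

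The mean count did not follow this pattern. In steps of 10% of the length, it was 32.7 in the first step, 32.6 in the last and between 31.3 and 33.4 in the others. The spread did, with an SD of 8.75 in the first step and 9.99 in the last, against 6.32 to 7.69 in between. Bins with fewer than 15 summits also gathered at the ends, with 55 in the first step and 93 in the last, or 47.3% of the 313. A second group of them lay in the interior, with 51 bins from 30 to 40% of the length, where the mean was lowest, and 29 from 40 to 50%. In the last step both the dense bins and the sparse ones were more numerous than in any other step, while its mean of 32.6 was close to that of all bins.

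**Figure D2:**
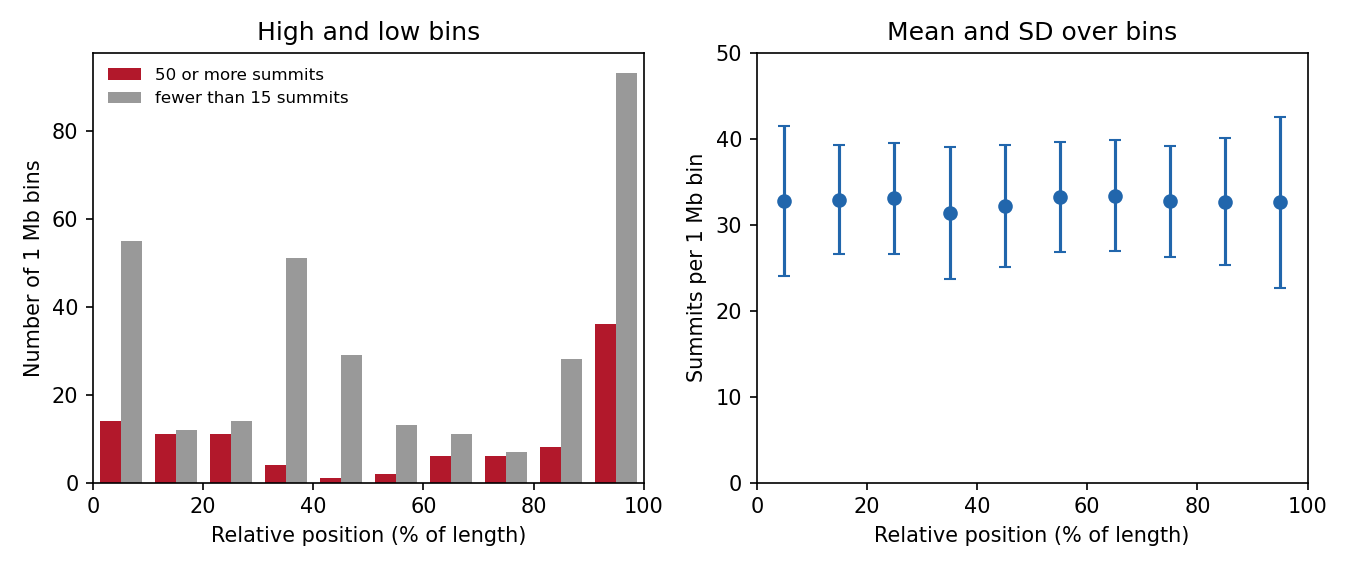
Left, number of 1 Mb bins with 50 or more summits (red) and with fewer than 15 (grey) in steps of 10% of the chromosome length. Right, mean summits per bin with the SD over bins, where the mean stays between 31.3 and 33.4 and the SD is highest in the last step at 9.99.

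By subgenome there were 44 dense bins on A, 40 on B and 15 on D, which is 0.891, 0.772 and 0.379% of their bins. The Poisson expectation at each subgenome's own mean was 21.6, 12.3 and 8.95 bins. The D subgenome thus had the fewest dense bins both in number and as a share, with a mean of 32.3 summits per bin that hardly differed from that of B, also 32.3. Of the dense bins on D, 13 of 15 lay in the outer 10% (86.7%, Wilson interval 62.1 to 96.3%). On A it was 18 of 44 (40.9%, 27.7 to 55.6%) and on B 19 of 40 (47.5%, 32.9 to 62.5%). Bins of a single list are not replicates, and these differences were not tested.

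Among chromosomes, 3A had the most dense bins, 14, against 4.56 expected at its own mean. It was followed by 2B, 3B and 7B with 8 each, against 1.61, 1.49 and 2.79 expected, and 7A with 7 against 5.43. Chromosome 4D had none against 0.917 expected, and the other 20 chromosomes each had more than expected. The position of dense bins varied between chromosomes of one kind. On 3B 7 of 8 lay in the outer 10% and on 7A 6 of 7, whereas none of the 6 on 1A and none of the 5 on 5B did.

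**Figure D3:**
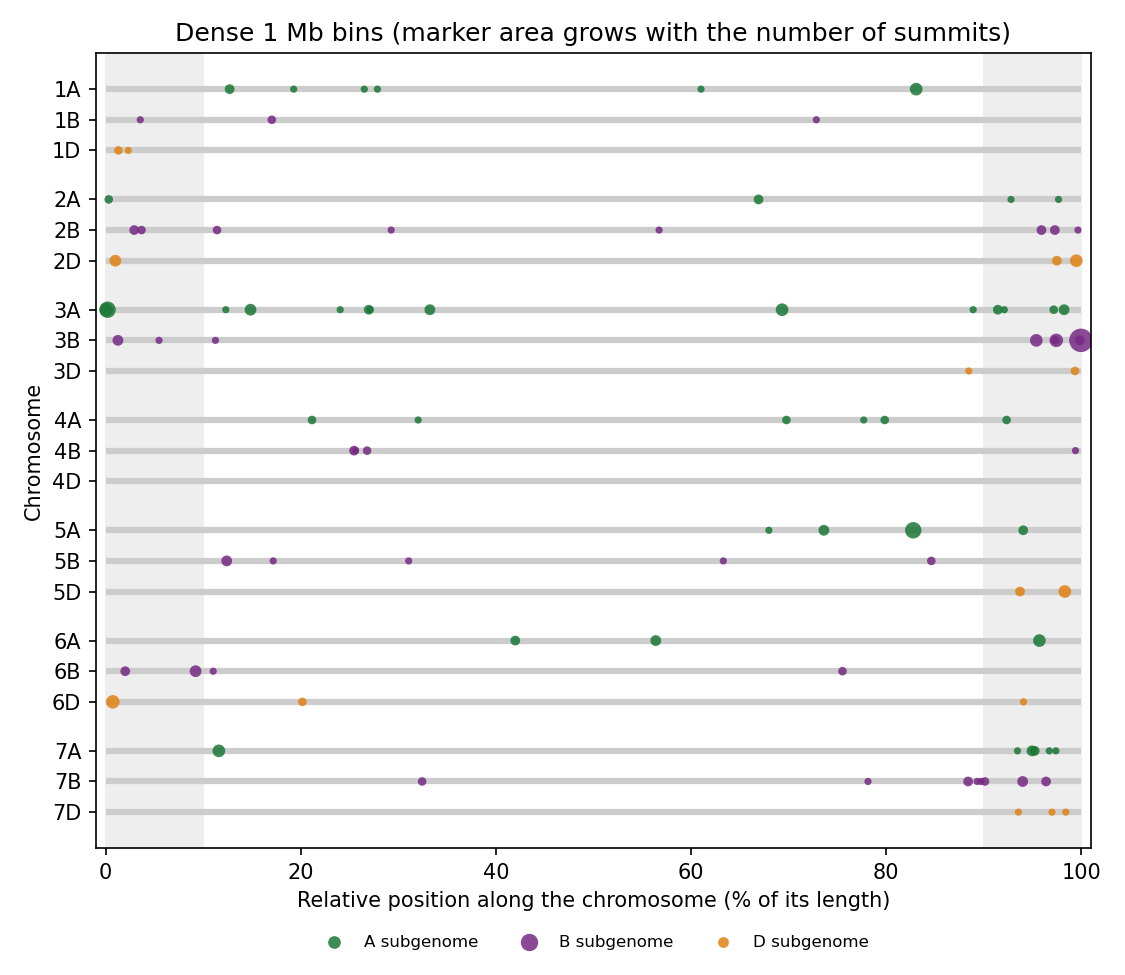
Each dense bin by its relative position along its chromosome, with the marker area growing with the number of summits and the outer 10% at each end shaded. The markers gather at the right-hand ends, 13 of the 15 D subgenome bins lie in the shaded parts, and 4D has none.

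Homoeologous chromosomes shared dense bins in a minority of cases. Position was compared as a percentage of the chromosome length up to its last peak, without gene anchors, so rearrangements and size differences blur the match. The homoeologous bin nearest to the same relative position held 32.5 ± 8.36 summits (SD over 198 comparisons of a dense bin with a homoeologue), no more than the mean of 32.7 of all bins. None of the 198 was dense, which allows a share of up to 1.52%. Since 17 of 1782 such bins on chromosomes of other groups were dense, and 0.703% of all bins, a count of 0 among 198 does not set the homoeologues apart.

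With a tolerance of 1% of the length, 26 of the 99 dense bins had a dense bin on at least 1 homoeologue, a count not made for other groups. In 35 of 198 comparisons, or 17.7% (Wilson interval 13.0 to 23.6%), the homoeologue had a match. Chromosomes of other groups had one in 255 of 1782 comparisons, or 14.3% (12.8 to 16.0%). The intervals overlap. Of the 21 matching pairs of bins, 8 were between A and B, 7 between A and D and 6 between B and D.

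The matches lay almost all in the outer 10%, in 20 of 21 pairs. For dense bins in the outer 10% the homoeologue matched in 33.0% of 100 comparisons (24.6 to 42.7%) and chromosomes of other groups in 21.1% of 900 (18.6 to 23.9%). For the remaining dense bins it was 2.04% of 98 (0.561 to 7.14%) against 7.37% of 882 (5.82 to 9.28%). The comparisons share bins and chromosomes, the intervals cover counting error only, and the difference between homoeologues and other chromosomes was not tested.

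All 3 homoeologues had a dense bin within 1% of each other at 3 places, each near the far end of the chromosome. Such sets were not counted among chromosomes of other groups, so they cannot be called particular to homoeologues. In group 2 these were the bins starting at 762000001 on 2A (50 summits), 779000001 on 2B (52) and 635000001 on 2D (52), at 97.7, 97.3 and 97.5% of the length. In group 7 the first set started at 688000001 on 7A (50), 705000001 on 7B (53) and 597000001 on 7D (50), between 93.5 and 94.0% of the length. The second started at 712000001 on 7A (50), 723000001 on 7B (52) and 619000001 on 7D (50), between 96.4 and 97.0%. The only matching pair away from the ends joined the bins starting at 667000001 on 3A and 544000001 on 3D, at 88.9 and 88.5%, with 50 summits each.

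Within dense bins the summits were closer together, as the rule requires. The median distance to the nearest summit was 8749 bp for the 5134 members (quartiles 5654 and 14268 bp) and 11919 bp for the other peaks on the chromosomes (6895 and 21188 bp). It was shorter for the members on all 20 chromosomes with a dense bin. The spacing was wider than random placement of points at the same mean density would give. That calculation gives a median of 6683 bp in dense bins and 10645 bp elsewhere, so the observed medians were 1.31 and 1.12 times the random ones. It takes summits as points at a single density per set, whereas peaks have width and other bins held 0 to 49 summits. The ratios therefore do not show whether dense bins are more evenly spaced than others.

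The shape of the distribution shows where the distances lie. A nearest summit within 2 kb was found for 10.9% of the members (Wilson interval 10.1 to 11.8%) and 7.99% of the other peaks. Few peaks of either set had it at 2 to 5 kb, 9.58% of the members and 5.99% of the others. At 5 to 10 kb the shares were 36.8 and 27.8%. Beyond 20 kb the order turned, with 12.2% of the members and 27.3% of the others.

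**Figure D4:**
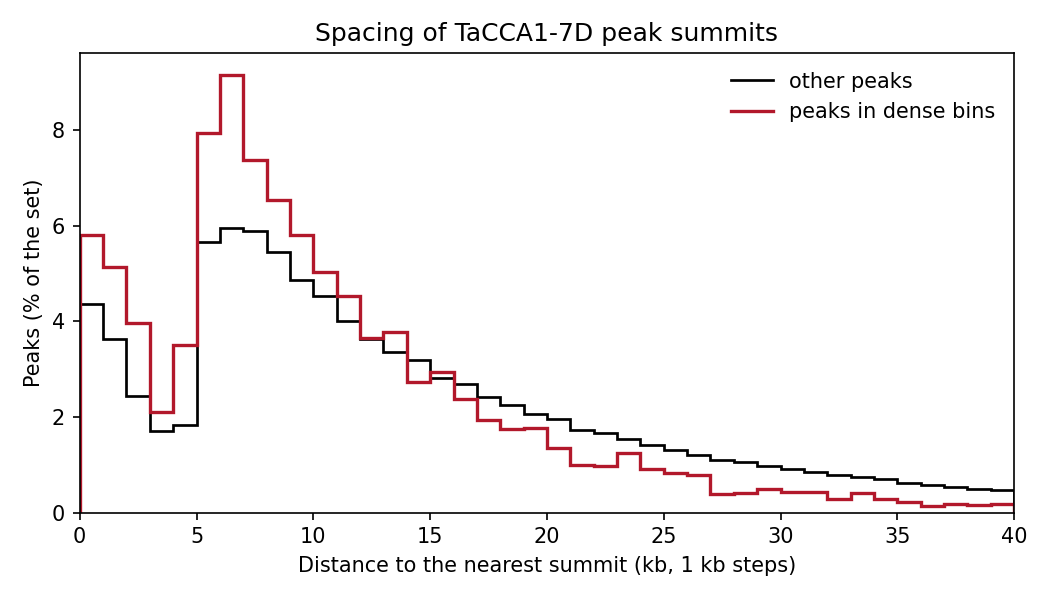
Share of peaks by the distance to the nearest summit in steps of 1 kb, for peaks in dense bins (red) and other peaks (black). Both sets dip between 3 and 5 kb and rise again from 5 kb, and the red line lies above the black one at short distances.

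No dense bin was a single tight cluster. The largest number of summits within 100 kb ranged from 7 to 17 with a median of 10, and the widest gap between neighbouring summits in a bin ranged from 47.2 to 152.0 kb. Counted once within 2 kb, the 99 bins held 45 to 65 sites with a median of 49, against a median of 32 in other bins. The summits were thus spread along the whole Mb.

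The widths and strengths of the member peaks were close to those of other peaks. The median width was 487 bp (quartiles 327 and 666 bp) against 483 bp (329 and 662 bp). It was higher for the members on 12 of 20 chromosomes and lower on 7. The share of peaks of 1 kb or more was 3.93% (Wilson interval 3.44 to 4.50%) against 3.79%. The widest member, at 2131 bp, spans 2268718 to 2270848 on 2A and had a fold enrichment of 5.82.

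The median fold enrichment was 6.22 for the members (quartiles 5.55 and 7.34) and 6.18 for the others (5.55 and 7.33). It was higher on 12 of 20 chromosomes, lower on 4 and equal on 4. Dense bins were therefore not bins of stronger peaks in the median. The upper end differed more, with 190 members, or 3.70% (3.22 to 4.25%), above a fold enrichment of 10 against 2.88% of the other peaks. Within the outer 10% of the chromosomes the shares were 4.31% (3.60 to 5.16%) and 3.66%, and in the rest 3.06% (2.46 to 3.81%) and 2.69%. In both parts the interval of the members includes the share of the others, and the difference was not tested.

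These strong members were scattered. Of the dense bins, 18 had none, 66 had 1 to 3 and 15 had 4 or more, with at most 7, in the first Mb of 3A and in the bin starting at 723000001 on 7B. The highest fold enrichment among the members, 19.5, was found on 7B from 663104117 to 663104850, where 245 tags overlapped the summit at a background of 11.6 tags. The next, 19.0, on 1B from 24585069 to 24585462, rested on 35 tags at a background of 0.898. Similar fold enrichments, with the added 1 in both parts of the ratio, thus came from very different numbers of tags. On the chromosomes 182 peaks outside the dense bins had a higher fold enrichment than the first.

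Pileup and local background were both somewhat higher in dense bins. The median pileup was 13 tags against 12, and 11.4% of the members (10.5 to 12.3%) had 20 tags or more against 7.99% of the others. The background was above 2 tags for 10.8% (10.0 to 11.7%) against 7.29%, and at its lowest value for 18.1% (17.1 to 19.2%) against 22.0%. Both therefore moved with the density, and their part in it was not tested.

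The peak caller numbers its peaks along the chromosomes before the authors' filter. The numbers from the first to the last listed peak of a bin give the peaks called over that span, if each was given once. Called peaks beyond the first and last listed ones are not counted, so the kept shares come out somewhat too high. Dense bins had a median of 98 numbered peaks (range 77 to 133) against 76 in other bins (quartiles 67 and 84), and all 99 lay above that 76. The list kept 52.4% of the numbered peaks in dense bins and 43.8% in the others. The 1.59-fold higher mean count of dense bins thus divides into 1.33 times as many numbered peaks and a 1.20 times higher kept share. Choosing bins by their count of listed summits raises both factors, so this split is a description only. Of the 511 bins with 98 or more numbered peaks, 50 were dense, against 99 of all 14074 bins. The 50 follow from the cut, which is the median of the dense bins.

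**Figure D5:**
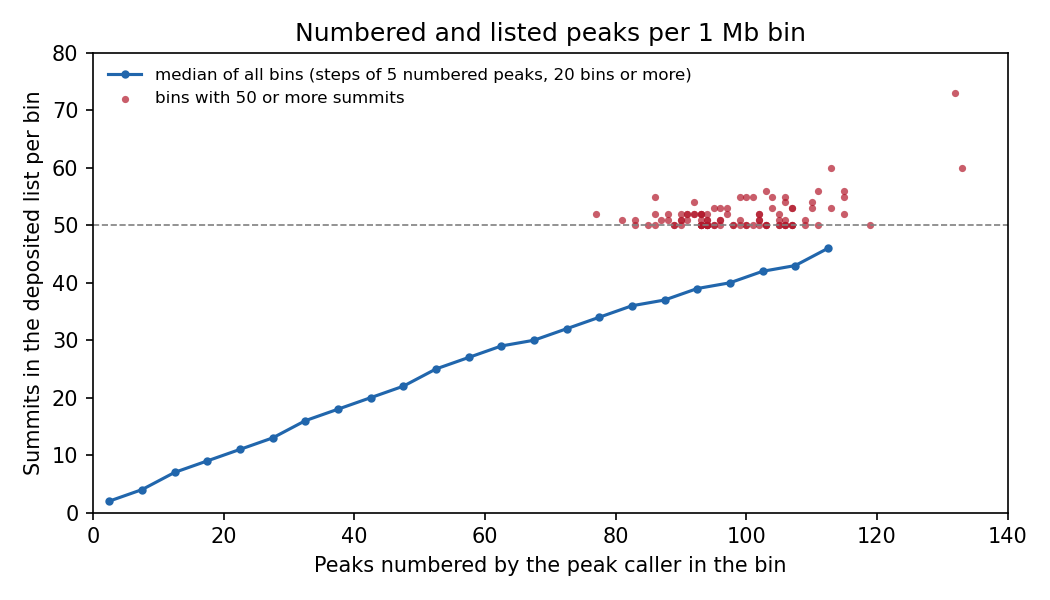
Summits in the deposited list against peaks numbered by the peak caller, per 1 Mb bin, for the 99 dense bins (red points) and as the median of all bins in steps of 5 numbered peaks (blue line). The dense bins lie between 77 and 133 numbered peaks and above the blue line by construction, since they have 50 or more summits (dashed line).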

How the data were processed

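The authors trimmed the reads with Trimmomatic, mapped them with Bowtie2 2.3.4 to the wheat assembly that the methods call Ensembl 1.0, kept reads with a mapping quality above 10 (SAMtools 1.9), removed duplicates with Picard and called peaks with MACS2. The deposited peaks passed cut-offs of 5 for the fold enrichment and 1e-5 for the FDR. The deposited list gives the fold enrichment (a ratio of pileup to local background, each with a pseudocount of 1), the −log10 p-value and q-value, a score derived from the q-value, and positions. Whether the libraries were pooled, and the control used, are not given in the sources used here.

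Summits were the peak start plus the summit offset. Chromosome length was taken up to the last peak, and empty bins were counted. Whole-number pileups and backgrounds were worked back from both summit statistics, the fold enrichment and the p-value (misfit under 0.0001 for 100.0% of peaks), a step checked on simulated data, as was the binning. The median pileup of all peaks was 12 tags. Library totals were not analysed here, so precision rests on these tags. Wilson intervals are at 95% and cover counting error only, as if bins or peaks of the list were independent. The random spacing is the median nearest-neighbour distance of independent summits at the mean density. Genes were not placed, since the available gene table is of another assembly. The input libraries entered no comparison.

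The members, the named bins (the 5 with most summits and ties, the longest run, sets shared by 3 homoeologues, the threshold bins) and the named peaks (highest fold enrichment, widest) were chosen with earlier results of these data known. The second peak by fold enrichment was named after its value was seen. No tests were run, since all values come from the list that chose the members. Alternatives changed bin size, start, threshold, filter, site merging and position tolerance. Python 3.11.15, numpy 2.4.6, pandas 2.3.3, scipy 1.17.1 and matplotlib 3.10.9 were used.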

Additional observations from a re-analysis of the deposited data

How the results depend on the processing

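The number of dense bins, 99 with 5134 peaks, depends on the threshold, the bin size, the filter and the merging of close summits, and less on the bin start, which gave 94 with 4903 when shifted. Which peaks are members depends strongly on the bin start, since the shifted dense bins held only 22.4% of the 5134. A threshold of 45 summits gave 584 bins with 27638 peaks against a Poisson expectation of 332.6 bins, and 60 gave 3 with 193 against 0.167. Bins of 0.5 Mb with 25 summits gave 980 with 25965 against 782.5 expected. Bins of 2 Mb with 100 summits gave 8 with 829 against 0.286 expected. Counting summits within 2 kb once gave 35 bins with 1804 sites and lowered the Poisson expectation, at the mean of each chromosome, from 45.3 to 20.6. Counting summits within 5 kb once, chosen after seeing the data, gave 10 bins against 9.40 expected, so little excess was left. With an FDR below 1e-10 and a scaled threshold of 10 summits, 1942 bins with 22145 peaks passed against 1666 expected, and 67 of the 99 were among them. With a fold enrichment above 10 and a threshold of 2 it was 3363 bins with 8215 peaks against 3438 expected. Both scaled thresholds took a far larger part of the 14074 bins than the 0.703% of the main rule. They therefore do not show whether strong peaks have a dense tail of their own. The share of dense bins near the ends over that of all bins was 2.52 in the outer 10%, 3.61 in the outer 5%, 1.74 in the outer 20% and 3.14 with summits within 2 kb counted once. Homoeologues matched in 33.8% of comparisons within 2% of the length, against 24.5% for other groups. Over the reported setting and its alternatives, the share for homoeologues minus that for other groups was 2.96 to 9.32 percentage points. This difference was not tested, and it had the opposite sign for dense bins outside the outer 10% (2.04 against 7.37%) and at the nearest bin (0 of 198 against 17 of 1782). The ratio of the median spacing, members over others, was 0.734, and 0.549 among peaks with an FDR below 1e-10. That of the median fold enrichment was 1.01, and 1.28 for the share above 10. At the lowest local background it was 1.00. The causes were not tested. The other alternatives, for width, numbered peaks, bin start and position, stayed close to the main values. Leaving out a replicate was not possible. No paired analysis was possible because both libraries share 1 list of peaks. A summit rests on a median of 13 tags in dense bins, which limits the value of a single peak.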
